A study of Homo sapiens with 10 samples.

Results

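Rab, Arf and SNARE genes encode the core machinery of vesicle traffic, and their mRNAs were examined here in a Burkitt's lymphoma line after knockdown of the kinase STK38. The set comprised every gene that is the only one named for some probe set and whose symbol starts with RAB, ARF, VAMP, STX, SNX or VPS followed by a digit, together with SNAP23 and SNAP29 where present. The rule used names only and no measured value. It found 86 genes on 124 probe sets, of 8227 genes on 12558 probe sets in all, and each gene was represented by its brightest probe set. SNAP29 and RAB7A were not analysed here. Of the 86 genes, 70 passed the filter on low signal and were tested.

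ST486, a human Burkitt's lymphoma B cell line, was transduced for 60 h with lentivirus coding for either an shRNA (short hairpin RNA) that targets STK38 or a non-target control shRNA, and total RNA was measured on Affymetrix HG-U95Av2 arrays. STK38 is also called NDR1 and belongs to the NDR/LATS kinases, and the study asked how it bears on MYC activity. Each group held 5 arrays. Both groups carried a lentiviral hairpin, 1 hairpin targeted STK38, and 1 cell line was used, and what the hairpin does through STK38 and through other targets cannot be told apart. Whether replicates were separate cultures is not stated in the labels, so the p-values measure the spread between arrays, which may be technical.

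Small GTPases of the Rab and Arf families switch between a GDP-bound and a GTP-bound form, and in the GTP form they recruit coats, tethers and motors that give each membrane its identity. SNARE proteins (syntaxins, VAMPs and SNAP proteins) on a vesicle and its target membrane zip together and drive fusion, and NSF with its SNAP adaptors then takes the complexes apart. Sorting nexins (SNX) and most VPS proteins work on endosomes, where retromer returns cargo to the Golgi and plasma membrane and the tethers CORVET and HOPS prepare endosomes for fusion with each other and with lysosomes. In B cells these routes carry the antigen receptor inward and newly made immunoglobulin and surface proteins outward.

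STK38 mRNA was lower on every STK38 shRNA array than on every control array at each of its 3 probe sets, with log2 fold changes of -2.19, -1.16 and -0.82. Of 6 B cell markers measured, CD79A, CD79B, CD22 and MS4A1 were above background on all 10 arrays, while the probe sets of PAX5 and CD37 were above it on 0 arrays. CD79A was called higher with the STK38 shRNA (0.49 on the log2 scale, limma adjusted p = 0.000689). CD79B, CD22 and MS4A1 were not called, with -0.19, -0.09 and 0.00. Of the T cell markers measured, 0 of 5 were above background on any array, and the count was 0 of 4 for neuronal markers. The other lists held some markers above it. The epithelial marker KRT8 was above background on all 10 arrays, at 3.84 to 4.37. Of the monocyte markers, S100A8 was above it on 1 control array and 1 STK38 shRNA array, and S100A9 on 1 and 2. The 3′ minus 5′ signal of ACTB, a sign of RNA quality, was 0.93 ± 0.096 on the controls and 0.93 ± 0.093 with the STK38 shRNA (SD, n = 5 each, two-sided exact permutation p = 0.976). STK38 shRNA replicate 4 stood apart from its group. Its mean correlation with the other STK38 shRNA arrays was 0.982, where the means of the others were 0.992 to 0.993, and its background was 2.65 where theirs was 2.37 to 2.44 and that of the controls 2.36 to 2.66. The mean level of the monocyte markers on that array was 2.24 against 1.88 to 2.03 on the other STK38 shRNA arrays and 1.90 to 2.09 on the controls. For epithelial markers the mean was 2.66 against 2.27 to 2.41 and 2.19 to 2.41, and for fibroblast and endothelial markers 2.08 against 1.83 to 1.99 and 1.84 to 1.88. The T cell markers, at 1.70 against 1.53 to 1.59 and 1.51 to 1.57, and the neuronal markers, at 1.74 against 1.51 to 1.61 and 1.49 to 1.58, were highest on that array too, so all 5 lists other than the B cell list were. The part of these markers in the results was not tested, and values without that array are given beside the results that rest on it.

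Several promoters carry the sequence features described at the end of the results. They are shown here because VPS11, STX6 and STX5 rose with the STK38 shRNA and RAB21 fell, and all carry one of the 3 short motifs searched. Each runs 5′ to 3′ from 250 bases before to 50 bases after the gene's start (RefSeq, GRCh38.p14), with motif matches in capitals: CACGTG or TCACGTGA in VPS11, STX6 and RAB21, and ACGTGGC in STX5.
VPS11, chr11:119067568-119067867, plus strand: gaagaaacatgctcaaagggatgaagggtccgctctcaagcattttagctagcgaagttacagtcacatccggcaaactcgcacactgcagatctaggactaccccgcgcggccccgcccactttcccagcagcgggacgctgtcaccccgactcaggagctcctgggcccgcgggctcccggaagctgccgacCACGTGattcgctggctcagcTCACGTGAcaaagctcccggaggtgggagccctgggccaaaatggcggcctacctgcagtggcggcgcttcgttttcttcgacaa
STX6, chr1:181022821-181023120, minus strand: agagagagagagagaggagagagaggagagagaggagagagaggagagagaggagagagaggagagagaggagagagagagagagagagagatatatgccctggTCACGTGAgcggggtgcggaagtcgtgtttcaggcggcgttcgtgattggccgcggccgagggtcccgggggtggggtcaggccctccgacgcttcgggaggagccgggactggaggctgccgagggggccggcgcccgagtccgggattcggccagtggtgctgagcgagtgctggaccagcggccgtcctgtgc
RAB21, chr12:71754613-71754912, plus strand: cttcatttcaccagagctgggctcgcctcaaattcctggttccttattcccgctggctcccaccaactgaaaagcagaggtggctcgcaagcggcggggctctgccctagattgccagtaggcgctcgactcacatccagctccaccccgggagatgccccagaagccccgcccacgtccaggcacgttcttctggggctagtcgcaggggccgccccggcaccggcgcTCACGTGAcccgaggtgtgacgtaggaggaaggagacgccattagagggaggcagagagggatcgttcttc
STX5, chr11:62832002-62832301, minus strand: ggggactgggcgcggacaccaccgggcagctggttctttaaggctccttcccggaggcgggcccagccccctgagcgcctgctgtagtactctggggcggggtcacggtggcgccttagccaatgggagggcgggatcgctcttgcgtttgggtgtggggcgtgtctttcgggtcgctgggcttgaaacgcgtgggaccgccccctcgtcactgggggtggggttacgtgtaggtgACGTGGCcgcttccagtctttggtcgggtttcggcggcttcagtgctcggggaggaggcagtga

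More vesicle traffic genes rose than fell. Of the 70 tested, 19 were higher and 4 were lower with the STK38 shRNA (limma, Benjamini-Hochberg adjusted over all 7535 probe sets tested, threshold 0.05), and 47 were not called. In the same fit 15.2% of all 5403 tested genes were higher and 15.8% lower, 31.0% in either direction. The members' shares were 27.1% higher and 5.71% lower, 32.9% in all, so the total share lay near that of all genes and the split between directions did not. The median log2 fold change of the members was 0.10, beside 0.019 over all tested genes. Without STK38 shRNA replicate 4, 24 members were higher and 5 lower, beside 21.7% and 16.9% of all genes, and the members' median was 0.14. At 17 of the 70 members no array of one group reached the range of the other, beside 23.0% of all tested genes. In whole-culture RNA, fewer cells that express a gene and less of its mRNA in each cell cannot be told apart.

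**Figure D1:**
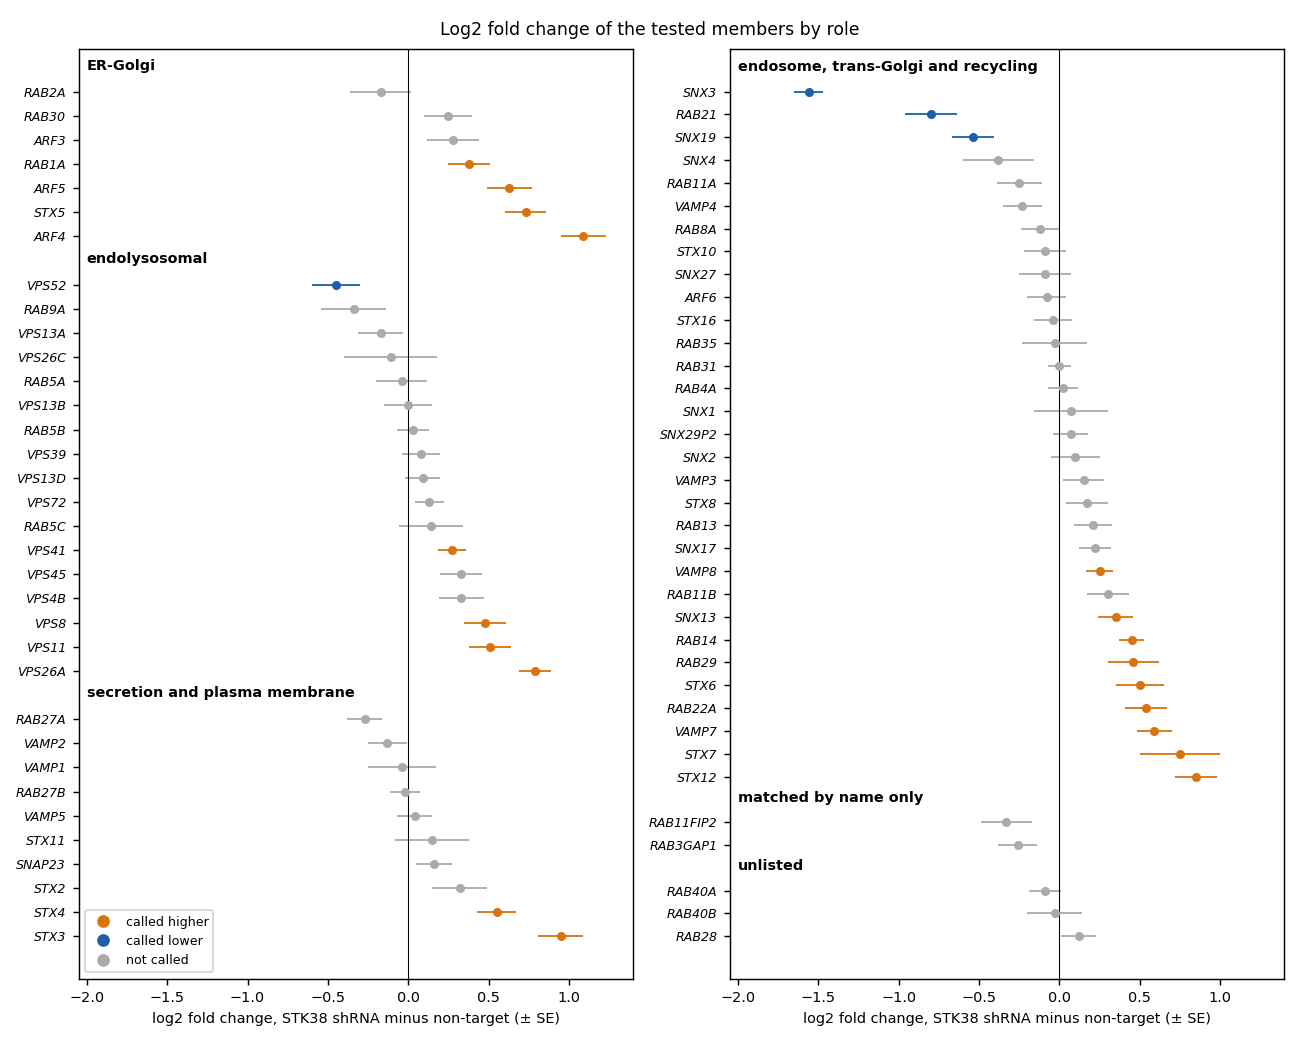
Log2 fold change of each of the 70 tested genes (horizontal axis, STK38 shRNA minus non-target shRNA, points with SE), grouped by role, with called genes in colour. The values run from -1.56 for SNX3 to 1.09 for ARF4, and 19 of the 23 called genes lie to the right of 0.

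By family, syntaxins, VAMPs and Arf genes had rises without falls, where 15.2% of all tested genes were higher and 15.8% lower. Of 11 syntaxin genes tested, 6 were higher and 0 lower, with a median of 0.50, and of 4 Arf genes 2 were higher and 0 lower. Of 7 VAMP genes 2 were higher and 0 lower, with a median of 0.04. All 19 tested SNARE genes combined, that is syntaxins, VAMPs and SNAP23, held 8 that were higher and 0 that were lower, with a median of 0.17. The Rab genes were divided, with 4 higher and 1 lower of 25 tested and a median of -0.02. Among 9 sorting nexins 1 was higher and 2 were lower, and among 13 VPS genes 4 were higher and 1 was lower, with a median of 0.13. These counts are descriptions of the families, and differences between families, or between a family and all tested genes, were not tested. The share of Rab genes called higher, 4 of 25, lay near that of all tested genes, and the share lower lay below it. With 4 Arf genes, 7 VAMP genes and 11 syntaxin genes, a count of 0 lower in a family cannot be told from the share of all tested genes.

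The ER-Golgi list (RAB1A, RAB2A, RAB30, ARF3, ARF4, ARF5 and STX5 among those tested) had 4 genes higher and 0 lower of 7, with a median of 0.38. The share higher was 57.1%, where 15.2% of all tested genes were higher and 15.8% lower. Without STK38 shRNA replicate 4 the counts stayed at 4 and 0, beside 21.7% and 16.9% of all tested genes, and the median was 0.33. ARF4, an Arf GTPase that recruits coats at the Golgi, had the largest rise of all members. Its log2 values were 6.11, 6.20, 6.27, 6.16 and 5.67 on non-target replicates 1 to 5 and 6.96, 7.39, 6.86, 7.38 and 7.28 on STK38 shRNA replicates 1 to 5. Every STK38 shRNA array lay above every control, and the difference between the means, 6.08 ± 0.24 and 7.17 ± 0.25 (SD, n = 5 each), was 2.13-fold (log2 fold change 1.09, limma adjusted p = 2.66e-05, SE 0.14).

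ARF5, a close relative of ARF4 that acts on the same membranes, read 5.21, 5.29, 5.39, 5.10 and 4.94 on the controls and 5.58, 6.17, 5.80, 5.55 and 5.99 with the STK38 shRNA. The groups again did not overlap, at a log2 fold change of 0.63 (SE 0.14, limma adjusted p = 0.00264). STX5, the syntaxin of the cis-Golgi that receives vesicles from the ER, read 3.40, 3.52, 3.21, 3.30 and 3.42 on the controls and 4.10, 4.13, 4.48, 3.96 and 3.86 on the STK38 shRNA arrays. It was higher on all 5 of them, with a log2 fold change of 0.73 (limma adjusted p = 0.000655, SE 0.13).

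RAB1A, the GTPase that directs ER-derived vesicles to the Golgi, rose less, from 8.44 ± 0.3 to 8.82 ± 0.16 (SD, n = 5 each), and its groups overlapped. Its log2 fold change of 0.38 had a limma adjusted p of 0.0335. That call was lost without STK38 shRNA replicate 2 (0.33, adjusted p = 0.0860) and without non-target replicate 1 (0.37, adjusted p = 0.0679), 4 (0.39, adjusted p = 0.0551) or 5 (0.25, adjusted p = 0.0560). It was also lost without the filter (adjusted p = 0.0502) and without the variance trend (adjusted p = 0.0589). The other RAB1A probe sets had smaller differences, down to 0.17, and the median of its probe sets was not called (0.20, adjusted p = 0.181). ARF3 had a log2 fold change of 0.28 (SE 0.16, limma adjusted p = 0.228), RAB30 of 0.25 and RAB2A of -0.17, and none of these passed the test. RAB30 was above background on 1 control array and 3 STK38 shRNA arrays, and without STK38 shRNA replicate 4, its highest array, had 0.12. RAB33A and RAB6B were above background on 0 arrays and were not tested.

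**Figure D2:**
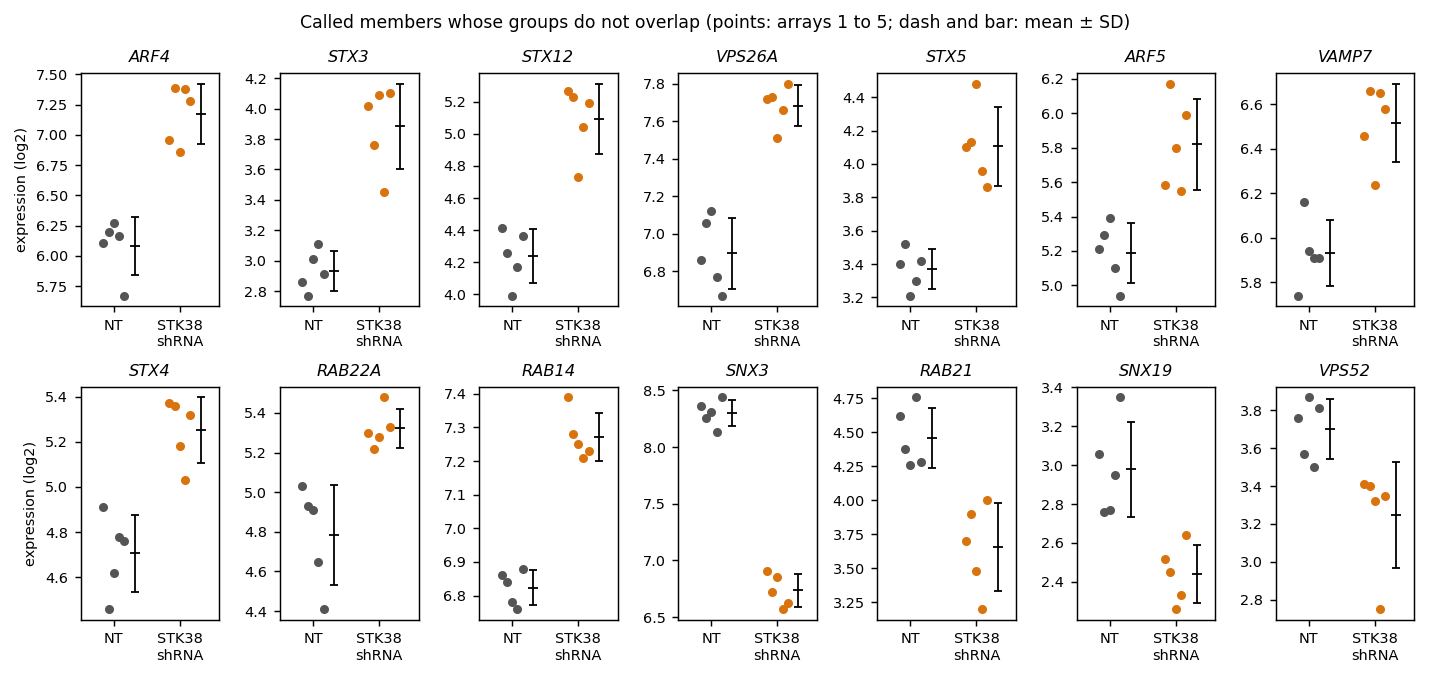
Log2 expression (vertical axis, own scale in each panel) of the 14 genes with the largest called changes and no overlap, for 5 non-target (NT) and 5 STK38 shRNA arrays, with the mean and SD beside the points. In 10 panels every STK38 shRNA array lies above every control and in 4 panels, from SNX3 to VPS52, below every control.

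The endolysosomal list, formed by RAB5, RAB9 and VPS genes, had calls in both directions. Of 17 tested, 4 were higher and 1 was lower, which is 29.4% called beside 31.0% of all tested genes, so the total share lay near that background. By direction the shares were 23.5% higher and 5.88% lower, beside 15.2% and 15.8% of all tested genes. The median was 0.09, and whether it differed from the ER-Golgi list was not tested. Without STK38 shRNA replicate 4, 7 were higher and 1 was lower and the median was 0.16, where the share of all tested genes called higher went from 15.2% to 21.7%. Leaving out STK38 shRNA replicate 1 instead lowered the median to 0.03, and array weights gave 0.17. The 3 further genes called higher without STK38 shRNA replicate 4 were RAB5C, VPS45 and VPS4B. The early endosome GTPases of the RAB5 group were not called in the fit of all arrays. RAB5A, which drives the fusion of early endosomes, read 5.44, 6.07, 6.00, 6.03 and 5.89 on the controls and 6.17, 6.09, 5.55, 5.45 and 5.98 with the STK38 shRNA. Its groups overlapped throughout (log2 fold change -0.04, limma adjusted p = 0.9, SE 0.16).

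RAB5C, a close relative of RAB5A, read 4.33, 4.15, 4.45, 4.40 and 4.52 on the controls and 4.86, 4.33, 4.89, 3.71 and 4.76 with the STK38 shRNA, where replicate 4 was the lowest of all 10 arrays. With it the log2 fold change was 0.14 (limma adjusted p = 0.676) and without it 0.34 (adjusted p = 0.048). RAB5B was dim, at 2.26, 2.52, 2.30, 2.10 and 2.36 on the controls and 2.53, 2.39, 2.40, 2.10 and 2.29 on the STK38 shRNA arrays, above background on 0 and 3 arrays of the groups. No size is given for it. RAB9A, which returns mannose-6-phosphate receptors from late endosomes to the trans-Golgi, read 4.16, 4.33, 4.02, 4.43 and 4.71 on the controls and 3.75, 4.22, 4.29, 3.33 and 4.35 with the STK38 shRNA. Its log2 fold change of -0.34 (SE 0.2, limma adjusted p = 0.224) was not called, and without replicate 4 it was -0.18.

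Among the VPS genes, VPS26A rose most. Its product is a core subunit of retromer, the coat that recycles cargo out of endosomes. VPS26A read 6.86, 7.06, 7.12, 6.77 and 6.67 on the controls and 7.72, 7.73, 7.51, 7.66 and 7.80 with the STK38 shRNA, with no overlap. The means of 6.90 ± 0.19 and 7.68 ± 0.11 (SD, n = 5 each) differed 1.73-fold (log2 fold change 0.79, limma adjusted p = 3.27e-05, SE 0.1). VPS26C, its relative in the retriever complex, ran from 5.49 to 5.93 on the controls and from 4.21 to 6.09 with the STK38 shRNA, where the low value was replicate 4. It had a log2 fold change of -0.11 with all arrays and 0.25 without that one, called in neither fit (adjusted p = 0.839 and 0.0819). The other retriever member of the list, VPS35L, was above background on 0 arrays and was not tested.

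The tethering complexes CORVET and HOPS share the core subunit VPS11. VPS11 read 2.47, 2.72, 2.50, 2.82 and 2.74 on the controls and 3.24, 3.03, 3.37, 2.80 and 3.39 with the STK38 shRNA, where replicate 4 fell within the control range. Its log2 fold change was 0.51 (SE 0.13, limma adjusted p = 0.00839). VPS8, a subunit of CORVET, rose by 0.48 (SE 0.13, adjusted p = 0.00906) with control values of 4.38 to 4.81 and STK38 shRNA values of 4.79 to 5.26. Of the subunits of HOPS, VPS39 had 0.08 (SE 0.12, adjusted p = 0.692) and was not called. VPS41 was called higher (adjusted p = 0.0294), but it was above background on 0 of 10 arrays, so no size is given. Leaving out any of 6 single arrays ended the call (STK38 shRNA replicates 2 and 5 and non-target replicates 1, 2, 3 and 4, adjusted p = 0.0545 to 0.0835). Quantile normalization, no filter and a replicate block each ended it too (adjusted p = 0.0522 to 0.0541).

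VPS52, a subunit of the GARP tether that receives endosomal vesicles at the trans-Golgi, was the 1 endolysosomal gene that fell. It read 3.76, 3.57, 3.87, 3.50 and 3.81 on the controls and 3.41, 3.40, 3.32, 2.75 and 3.35 with the STK38 shRNA, lowest on replicate 4. The groups did not overlap (log2 fold change -0.45, limma adjusted p = 0.0283, SE 0.15), and without replicate 4 the log2 fold change was -0.33 (adjusted p = 0.0243). The call was lost without non-target replicate 1 (-0.44, adjusted p = 0.0613), 3 (-0.41, adjusted p = 0.0741) or 5 (-0.42, adjusted p = 0.0634).

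VPS45, which chaperones syntaxins at the trans-Golgi and endosomes, had a log2 fold change of 0.33 (adjusted p = 0.0794), and 0.41 without STK38 shRNA replicate 4 (adjusted p = 0.0122). VPS4B, an ATPase that disassembles the ESCRT machinery, had 0.33 (adjusted p = 0.0823), and 0.39 without that array (adjusted p = 0.0215). The lipid transfer genes VPS13A, VPS13B and VPS13D were not called, with -0.17 for VPS13A, 0.00 for VPS13B and no size for VPS13D, which was above background on 0 control arrays. VPS72, which matched by name, encodes a chromatin remodelling subunit rather than a sorting protein and had 0.13 (adjusted p = 0.334). RAB9BP1, a pseudogene, and VPS9D1 were above background on 0 arrays and were not tested. Without VPS72 and RAB9BP1 the endolysosomal counts stayed at 4 higher and 1 lower, of 16.

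**Figure D3:**
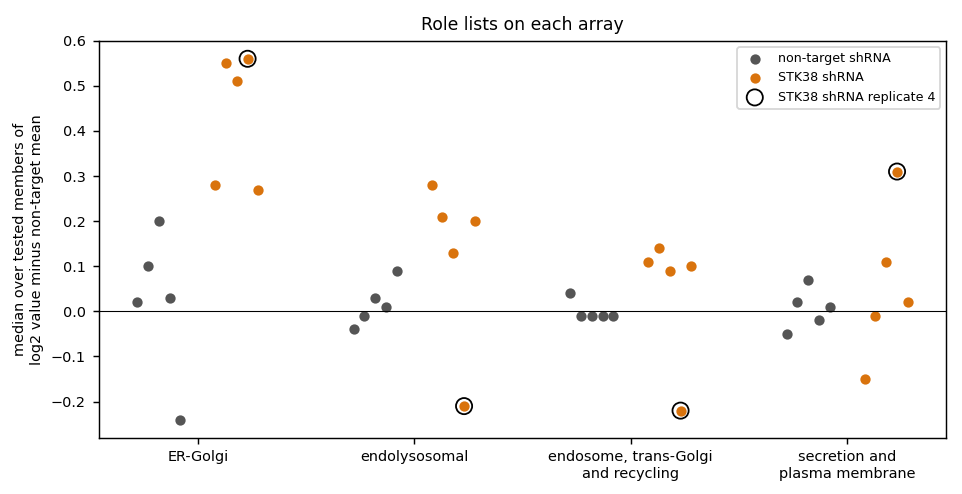
Median over the tested genes of each role list of the log2 value minus the mean of the non-target arrays (vertical axis), 1 point per array, with STK38 shRNA replicate 4 circled. ER-Golgi medians are 0.27 to 0.56 on the STK38 shRNA arrays and -0.24 to 0.20 on the controls. Endolysosomal medians are 0.13 to 0.28 on 4 STK38 shRNA arrays and -0.21 on replicate 4.

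The endosome, trans-Golgi and recycling list had 9 genes higher and 3 lower of 31 tested, with a median of 0.07. These shares were 29.0% and 9.68%, beside 15.2% and 15.8% of all tested genes. Without STK38 shRNA replicate 4 the counts were 10 and 3, beside 21.7% and 16.9% of all tested genes, and the median was 0.14. SNX3, in this list, had the largest change of any member. It encodes a sorting nexin that binds endosomal lipid and works with retromer, and it fell while the retromer subunit VPS26A rose. SNX3 read 8.36, 8.26, 8.31, 8.13 and 8.44 on the controls and 6.91, 6.72, 6.85, 6.57 and 6.62 with the STK38 shRNA, so that the groups lay more than 1 log2 unit apart at their nearest arrays. The means of 8.30 ± 0.12 and 6.74 ± 0.15 (SD, n = 5 each) differed 2.96-fold (log2 fold change -1.56, limma adjusted p = 1.66e-08, SE 0.09). Of the other sorting nexins tied to retromer routes, SNX1, SNX2 and SNX27 were not called in the fit of all arrays. SNX1 had 0.07 (adjusted p = 0.868), and 0.34 without STK38 shRNA replicate 4 (adjusted p = 0.039). SNX2 had 0.10 (adjusted p = 0.679) and SNX27, which recycles cargo to the plasma membrane, -0.09 (adjusted p = 0.736).

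Of the remaining sorting nexins, SNX19 fell and SNX13 rose. SNX19 read 3.06, 2.76, 2.77, 2.95 and 3.35 on the controls and 2.52, 2.45, 2.26, 2.33 and 2.64 with the STK38 shRNA, above background on 5 and 3 arrays. Its groups did not overlap (log2 fold change -0.54, limma adjusted p = 0.00461, SE 0.13). SNX13 rose by 0.35 (SE 0.11, adjusted p = 0.0216), a call lost without STK38 shRNA replicate 3 (0.31, adjusted p = 0.0570) or non-target replicate 5 (0.31, adjusted p = 0.0579). SNX17, a recycling nexin, was higher on every STK38 shRNA array than on every control, at 3.28 to 3.45 against 3.13 to 3.21, but its difference of 0.22 was not called (adjusted p = 0.123). SNX4 had -0.38 (SE 0.22, adjusted p = 0.232).

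RAB21 was the 1 Rab gene that fell. It encodes a GTPase of early endosomes that takes part in integrin traffic. RAB21 read 4.62, 4.38, 4.26, 4.76 and 4.28 on the controls and 3.70, 3.90, 3.48, 3.20 and 4.00 with the STK38 shRNA. No array of one group reached the other, and the fall was 1.75-fold (log2 fold change -0.80, limma adjusted p = 0.00168, SE 0.16). Without STK38 shRNA replicate 4, its lowest array, the log2 fold change was -0.69 (adjusted p = 0.00069).

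RAB22A, RAB14 and RAB29 were the Rab genes of this list that were called higher, and RAB11A, RAB11B, RAB4A, RAB35, RAB8A, RAB13 and RAB31 were not called. RAB22A, which acts in early and recycling endosomes, read 5.03, 4.93, 4.91, 4.65 and 4.41 on the controls and 5.30, 5.22, 5.28, 5.48 and 5.33 with the STK38 shRNA. It rose by 0.54 (SE 0.13, limma adjusted p = 0.00534) at this probe set, while its other one had 0.02 and the median of both was not called (0.28, adjusted p = 0.0995). RAB14, a GTPase between the trans-Golgi and endosomes, was tight within each group, at 6.86, 6.84, 6.78, 6.76 and 6.88 on the controls and 7.39, 7.28, 7.25, 7.21 and 7.23 with the STK38 shRNA. Its log2 fold change was 0.45 (SE 0.077, adjusted p = 0.000437). RAB29 was called higher, by 0.46 (adjusted p = 0.0419), with 1 control array and 4 STK38 shRNA arrays above background, so the size is uncertain. That call was lost without STK38 shRNA replicate 1, 2 or 3 or non-target replicate 1, 2 or 5 (adjusted p = 0.0604 to 0.118). Scaling to a common median, quantile normalization, no filter, no variance trend and array weights each ended it too (adjusted p = 0.0546 to 0.0862). RAB29 was highest on STK38 shRNA replicate 4, at 3.17, and without that array had 0.32 (adjusted p = 0.0432).

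Recycling Rab genes of the RAB11 pair went in different directions without a call. RAB11A had -0.25 (SE 0.14, adjusted p = 0.206) and RAB11B 0.30 (adjusted p = 0.0928), and without STK38 shRNA replicate 4 RAB11B had 0.37 (adjusted p = 0.0124). RAB11B was above background on 2 control arrays and 4 STK38 shRNA arrays, so its size is uncertain. RAB8A, of exocytic carriers, and ARF6, the Arf of the plasma membrane, had -0.12 and -0.08 and were not called (adjusted p = 0.541 and 0.676).

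Of the endosomal SNAREs, STX12, STX7, VAMP7, VAMP8 and STX6 rose. STX12, the syntaxin of early and recycling endosomes, read 4.41, 4.26, 3.99, 4.17 and 4.36 on the controls and 5.27, 5.23, 4.73, 5.04 and 5.19 with the STK38 shRNA. The groups did not overlap and differed 1.81-fold (log2 fold change 0.85, limma adjusted p = 0.000184, SE 0.13). VAMP7, the vesicle SNARE that brings late endosomes and lysosomes to other membranes, read 5.74, 6.16, 5.94, 5.91 and 5.91 on the controls and 6.46, 6.66, 6.24, 6.65 and 6.58 with the STK38 shRNA. It too was higher on every STK38 shRNA array (log2 fold change 0.59, adjusted p = 0.000928, SE 0.11).

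STX7, the syntaxin of late endosomes, read 4.50, 4.01, 4.16, 4.62 and 4.68 on the controls and 5.54, 5.49, 5.43, 4.05 and 5.22 with the STK38 shRNA. Replicate 4 lay within the control range and the other 4 arrays lay above it. The log2 fold change was 0.75 with all arrays (SE 0.25, limma adjusted p = 0.0326) and 1.02 without replicate 4 (adjusted p = 1.81e-05). The call with replicate 4 was fragile, as it ended without STK38 shRNA replicate 1, 2, 3 or 5 or non-target replicate 1, 2 or 3 (adjusted p = 0.0539 to 0.0874). Of the SNAREs that form a complex with STX7, VAMP8 rose by 0.25 (adjusted p = 0.0383) with no overlap, at 7.31 to 7.53 on the controls and 7.54 to 7.87 with the STK38 shRNA. The VAMP8 call was lost without STK38 shRNA replicate 2, 3 or 4 or non-target replicate 2, 4 or 5 (adjusted p = 0.0580 to 0.107) and when arrays were scaled to a common median (0.26, adjusted p = 0.0735). No filter, array weights and a replicate block each ended it too (adjusted p = 0.0501 to 0.0748). STX8, another partner, had 0.17 (adjusted p = 0.392) and was not called.

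At the trans-Golgi, STX6 rose by 0.50 (SE 0.15, limma adjusted p = 0.0175), with control values of 3.16 to 3.65 and STK38 shRNA values of 3.51 to 4.21, and the groups overlapped at replicate 4. Its call was lost without STK38 shRNA replicate 5 (0.42, adjusted p = 0.0519). Its other probe set had 0.15, and the median of both was not called (0.32, adjusted p = 0.0517). Syntaxins that share these membranes did not pass the test, with -0.04 for STX16 (adjusted p = 0.852), for which all 5 probe sets lay between -0.04 and 0.09, and -0.09 for STX10 (adjusted p = 0.68). VAMP4, a vesicle SNARE that pairs with STX6, had -0.23 (adjusted p = 0.16), with 2 arrays of each group above background.

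In the secretion and plasma membrane list STX3 and STX4 were higher and 0 genes lower of 10 tested, with a median of 0.09. The share called, 2 of 10, lay below the 31.0% of all tested genes, and the syntaxins STX2 and STX11 were not called. Leaving out STK38 shRNA replicate 4 gave 3 and 0, beside 21.7% and 16.9% of all tested genes, and turned the median to -0.08. STX3, the syntaxin of apical and granule exocytosis, read 2.86, 2.77, 3.01, 3.11 and 2.91 on the controls and 4.02, 3.76, 4.09, 3.45 and 4.10 with the STK38 shRNA. The groups did not overlap, and the difference was 1.93-fold (log2 fold change 0.95, limma adjusted p = 0.000124, SE 0.14). STX4, the general plasma membrane syntaxin, read 4.91, 4.46, 4.62, 4.78 and 4.76 on the controls and 5.37, 5.36, 5.18, 5.03 and 5.32 with the STK38 shRNA, also without overlap. Its log2 fold change was 0.55 (SE 0.12, adjusted p = 0.00271).

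Partners of these syntaxins at the surface were not called. SNAP23, the partner of STX3 and STX4 in most cells outside neurons, had 0.16 (SE 0.11, adjusted p = 0.338), and VAMP2 had -0.13 (adjusted p = 0.526). STX2 had 0.32 (adjusted p = 0.169) with all arrays and 0.43 without STK38 shRNA replicate 4 (adjusted p = 0.0228). RAB27A, a GTPase of granule secretion, was above background on 3 control arrays and 0 STK38 shRNA arrays, so no size is given, and it was not called (adjusted p = 0.0776). RAB3A, RAB3B and STX1A, known from neurons and secretory granules, were above background on 0 arrays and were not tested.

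**Figure D4:**
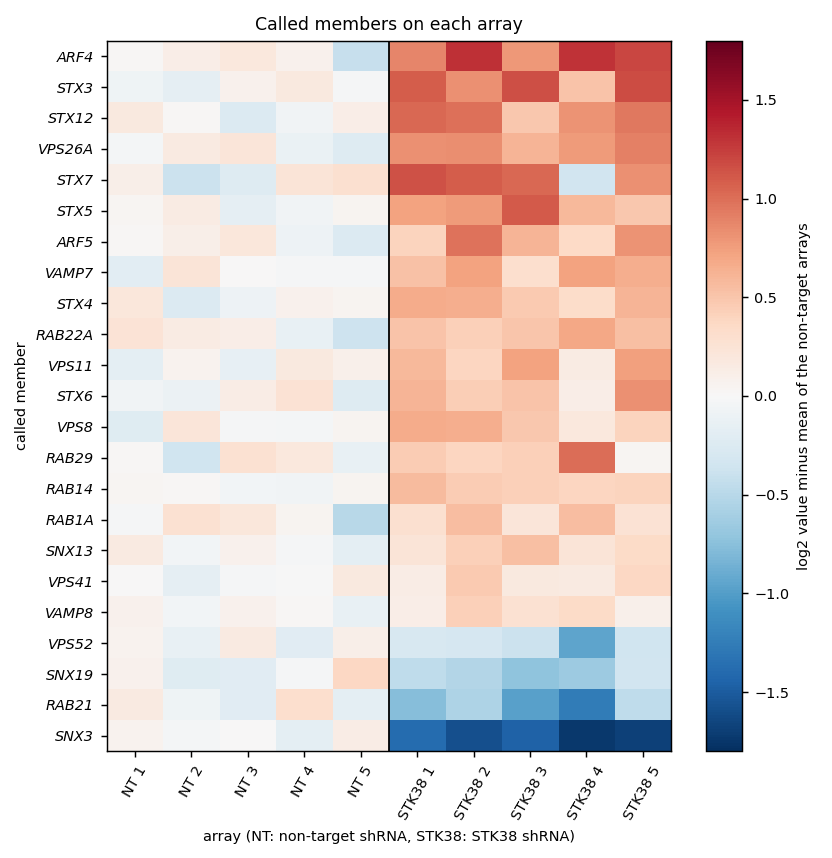
Log2 value minus the mean of the non-target arrays (colour) for the 23 called genes (rows, ordered by log2 fold change) on each array (columns). On STK38 shRNA replicate 4, STX7 lies within the range of the controls while VPS52 and RAB21 are lowest of all arrays.

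Few members matched by name without being part of the machinery itself. RAB3GAP1, a Rab regulator, had -0.26 (adjusted p = 0.11) and RAB11FIP2, a RAB11 effector, -0.33 (adjusted p = 0.131), and neither was called. Of the Rab genes in no role list, RAB28, RAB40A and RAB40B were tested and 0 were called, with log2 fold changes of 0.12 for RAB28 and -0.03 for RAB40B. RAB40A was above background on 0 of 10 arrays, so no size is given, and it was called lower without STK38 shRNA replicate 4 (adjusted p = 0.0323). The 16 members that were not tested were all above background on 0 arrays. Of the 86 members, 46 were above background on all 10 arrays and 22 on 0. Of 28 genes with several probe sets, only 3 (RAB1A, RAB22A and STX6) had any call. In each of these the brightest probe set was called and no other was. The remaining genes had no call at any probe set, so that 0 had calls in opposite directions does not show agreement between probe sets. Arf and Rab genes have close relatives, and a probe set may bind the transcript of a relative, which leaves the value of any one of them uncertain.

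The other genes of these pathways, taken from lists compiled from general knowledge with earlier results known, also held more rises than falls. Of 84 genes listed, 59 were measured and 53 tested, and 19 were higher and 6 lower (35.8% and 11.3%, beside 15.2% and 15.8% of all tested genes), with a median of 0.16. These counts were 26 and 6 without STK38 shRNA replicate 4, beside 21.7% and 16.9% of all tested genes. In the SNARE machinery list 6 were higher and 1 was lower of 13 (46.2% and 7.69%), with a median of 0.24. YKT6, a SNARE that acts with STX5 at the Golgi, rose 1.99-fold (log2 fold change 0.99, limma adjusted p = 1.64e-05, SE 0.12), at 5.97 to 6.27 against 4.86 to 5.40 on the controls. NSF, the ATPase that separates used SNARE complexes, rose by 0.79 (SE 0.10, adjusted p = 4.17e-05), at 7.85 to 8.03 against 6.93 to 7.51.

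The NSF adaptors NAPA and NAPG were called higher as well. NAPG had 0.63 (adjusted p = 0.00352), with 2 control arrays and 5 STK38 shRNA arrays above background. NAPA had 0.54 (adjusted p = 0.0372), a call lost on leaving out most single arrays (8 of 10, adjusted p up to 0.103). Without STK38 shRNA replicate 4, its lowest array at 4.36, NAPA had 0.72 (adjusted p = 0.000106). GOSR1, a Golgi SNARE partner of STX5, rose by 0.56 (adjusted p = 0.00332), and VTI1B, a partner of STX7 and STX8, by 0.48 (adjusted p = 0.0108). SEC22B, the SNARE on vesicles between ER and Golgi, went the other way. Its log2 fold change was -0.75 (adjusted p = 0.000954, SE 0.14), with values of 3.55 to 4.03 against 4.24 to 4.91 on the controls.

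Among Arf regulators and relatives 5 were higher and 1 was lower of 14, with a median of 0.18. These shares were 35.7% and 7.14%, beside 15.2% and 15.8% of all tested genes. ARL2, an Arf-like GTPase of tubulin folding, rose 2.14-fold (log2 fold change 1.10, adjusted p = 2.66e-05). SAR1A, which starts coat assembly at ER exit sites, rose by 0.47 (adjusted p = 0.000446), and GBF1, which activates Arf proteins at the Golgi, by 0.53 (adjusted p = 0.0183). ARFGEF2 had 0.59 (adjusted p = 0.0225), a call lost without any of 4 single arrays, with 3 control arrays and 4 STK38 shRNA arrays above background. Without STK38 shRNA replicate 4 it had 0.75 (adjusted p = 0.000215). ARFIP2, an Arf effector, fell by 0.81 on the log2 scale (adjusted p = 0.000206).

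Among Rab effectors and regulators 0 were higher and 2 were lower of 7 tested, with a median of -0.25. The share lower was 28.6%, where 15.2% of all tested genes were higher and 15.8% lower. TBC1D1, which switches off Rab proteins of glucose transporter vesicles, fell 2.32-fold (adjusted p = 2.85e-05, log2 fold change -1.21), and TBC1D5, which acts on RAB7 with retromer, had -0.52 (adjusted p = 0.00722). RABGAP1L had -0.26 (adjusted p = 0.110). Of 5 tested genes for Rab prenylation and recycling from membranes, 1 was higher and 1 lower. RABIF had 0.60 (adjusted p = 0.00954), with 2 control arrays above background, and GDI2, which extracts Rab proteins from membranes, fell by 0.28 on the log2 scale (adjusted p = 0.00477). RABGGTB, a subunit of the enzyme that prenylates Rab proteins, had 0.13 (adjusted p = 0.402).

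In the endosomal sorting list 7 were higher and 1 was lower of 14, beside 15.2% and 15.8% of all tested genes. The median was 0.34. Without STK38 shRNA replicate 4 the counts were 11 and 1, beside 21.7% and 16.9% of all tested genes. HGS and GGA3 were called higher (adjusted p = 0.0489 and 0.0424), but each call was lost without any of 8 single arrays. The STAM2 call (adjusted p = 0.028) was lost without any of 4. CHMP1A, an ESCRT subunit, rose 1.92-fold (log2 fold change 0.94, adjusted p = 3.57e-06, SE 0.095). LAMP1 and CD63, membrane proteins of lysosomes and late endosomes, rose by 0.81 (adjusted p = 1.86e-05) and 0.55 (adjusted p = 0.000981). GGA2, a sorting adaptor of the trans-Golgi, was the 1 that fell, with -0.52 (adjusted p = 0.00976).

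**Figure D5:**
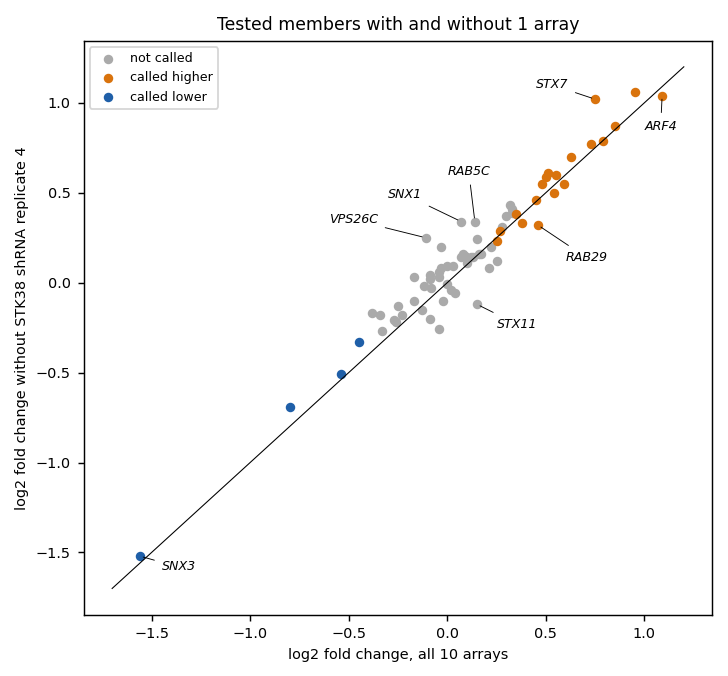
Log2 fold change of the 70 tested genes with all 10 arrays (horizontal axis) and without STK38 shRNA replicate 4 (vertical axis), with the line of equal values and the calls of the fit on all arrays in colour. STX7 moves from 0.75 to 1.02, SNX1 from 0.07 to 0.34 and VPS26C from -0.11 to 0.25, while SNX3 and ARF4 stay close to the line.

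RefSeq promoters were matched for 74 of the 86 members and for 19 of the 23 called ones. A few short motifs were searched on both strands. CACGTG is the E-box that MYC and the lysosomal factor TFEB are known to recognise, TCACGTGA is a longer form that contains it, and ACGTGGC is the core of a Golgi stress element that can overlap an E-box. CACGTG was in 4 of 16 promoters of the genes that rose (VPS11, VPS8, RAB29 and STX6), in 1 of 3 of those that fell (RAB21) and in 4 of 42 of those not called. It was in 7.43% of all 27305 promoters of the table and in 10.4% of those of all tested genes. TCACGTGA was in the promoters of VPS11, STX6 and RAB21 and of 1 gene that was not called, beside 2.14% of those of all tested genes, so the longer motif occurred in genes that moved in both directions.

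Counted from the gene's start, matches begin at -56 and -35 in VPS11, at -146 in STX6 and at -21 in RAB21. ACGTGGC was in 1 promoter of the genes that rose, that of STX5 at -14, in 3 of 42 of those not called, and in 4.36% of those of all tested genes. A match describes the letters of the window and shows no binding.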

How the data were processed

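The authors deposited log2 expression values, 1 per probe set and array; the submitters' processing notes name GCRMA and affy, with no version, and the values themselves (0.35 to 12.65) show the log2 scale. GCRMA compresses dim probe sets, so small differences near background are understated. Groups and replicate numbers came from the labels. Symbols came from the platform annotation (1 gene for 10943 probe sets, several for 545, none for 1070), and 8 probe sets that name a member together with another gene were not used. All 86 members carried the same symbol in RefSeq (GRCh38.p14).

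After 67 control probe sets were removed, probe sets with a mean at or above the 40th percentile (1.93) were kept, 7535 in all, and compared in R 4.3.3 with limma 3.58.1 (trend, no covariate). Adjusted p-values are from that fit. Background, set with earlier results known, was each array's 90th percentile over 23 control probe sets, 2.36 to 2.66. Data were also simulated from these probe sets, with 200 of 7535 raised. There limma recovered 16.0% of changes of 0.3, 58.6% of 0.5 and 95.2% of 1 on the log2 scale, and 5.73% of its calls were false. The fit of the measured data called 1064 probe sets higher and 1192 lower, far more than were changed in the simulation, so these rates may not carry over. Figures used matplotlib 3.10.9.

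The members, role lists and pathway lists were chosen with earlier results of these data known. Per-array values are given for up to 10 called rises and 10 called falls without overlap and for RAB5 and RAB9A, then up to 4 further members per role list and 3 genes per pathway list. Genes beyond that, VPS11 and STX7 array values and the promoter motifs were chosen after values were seen. Alternatives covered scaling, filter, variance model, array weights, threshold, choice of probe set, symbols, left-out arrays and a replicate block.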

Additional observations from a re-analysis of the deposited data

Results flagged for a closer look

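Single arrays far from the rest of their group of 5 were looked for at each of the 70 tested genes (140 groups), by the gap to the nearest array as a share of the range. This picked out 15 values, or 10.7%, where chance gives about 1 in 20. Of these, 8 were on STK38 shRNA replicate 4, all of them lowest of the group. On that array VPS26C read 4.21 where the others of its group read 5.88 to 6.09, STX7 4.05 (others 5.22 to 5.54), RAB35 2.14 (3.19 to 3.48) and SNX4 4.08 (5.05 to 5.29). VPS52 read 2.75 (3.32 to 3.41), STX10 3.78 (4.31 to 4.38), RAB8A 6.75 (7.18 to 7.28) and VAMP3 4.15 (4.58 to 4.75).

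The other 7 were spread over arrays. Non-target replicate 1 was low for RAB5A at 5.44 (others 5.89 to 6.07) and for the pseudogene SNX29P2 at 2.15 (2.43 to 2.51), and high for STX10 at 4.37 (4.29 to 4.31). Non-target replicate 5 was low for ARF4 at 5.67 (6.11 to 6.27). Non-target replicate 2 was high for SNX1 at 5.46 (5.16 to 5.24) and low for RAB27B at 1.81 (1.98 to 2.04). STK38 shRNA replicate 3 was high for RAB28 at 3.00 (2.60 to 2.66).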

How the results depend on the processing

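Over the alternatives other than left-out arrays, 12 to 21 members were called higher and 3 to 6 lower, against 19 and 4, and the median of the tested members ran from 0.04 to 0.14. An adjusted p threshold of 0.01 gave 12 higher and, for the endolysosomal list, 0 lower. With single arrays left out, members higher ran from 14 to 24 and lower from 3 to 5. Endolysosomal genes higher ran from 3 to 7 (7 without STK38 shRNA replicate 4) and lower from 0 to 1 (0 without non-target replicate 1, 3 or 5), and ER-Golgi genes higher from 3 to 4. Of the 23 called members, 15 were called in every fit that left out 1 array, 14 in all 18 alternatives, and 0 changed direction. The cause of the lost calls was not tested. The replicate numbers did not pair the arrays, as same-numbered arrays' deviations correlated at -0.214 to 0.192, and with the replicate block 17 members were higher and 4 lower. The scalings moved the median of all probe sets by less than 0.1. The rule applied to current symbols gave the same members. With 5 arrays a group, the two-sided exact permutation test cannot go below p = 0.00794.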
